A study of Mus musculus with 8 samples.

Results

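Matrix metalloproteinases, zinc-dependent enzymes that cut the proteins of the extracellular matrix, were followed in the posterior capsule of the mouse knee after joint immobility. The 10 genes Mmp2, Mmp3, Mmp8, Mmp9, Mmp10, Mmp11, Mmp12, Mmp13, Mmp14 and Mmp19 were chosen by symbol, and all 10 are among the 16464 genes that the deposited table lists. RNA came from wild type C57BL/6 males aged 10 weeks. The naive group had 4 libraries from knees without a cast, and the cast group had 4 libraries from knees held at 140 degrees for 2 weeks from 8 weeks of age. No label gives an agent or allele beyond the cast, or says whether each library came from its own mouse, so each p value reflects the spread among these samples alone, which may be technical.

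The family is secreted or held at the cell surface as inactive proenzymes, whose activation removes a prodomain that blocks the zinc. Collagenases make the initial cut in fibrillar collagen, gelatinases degrade the unwound chains, and stromelysins cut proteoglycans and glycoproteins and activate other members. In joint tissues these enzymes take part in remodelling and in the breakdown of cartilage and capsule matrix, and transcript level does not give enzyme activity.

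Values are normalised read counts, that is, reads scaled by a factor for each library, with totals of 972758 to 1045293. The reads behind the values numbered 5956148 to 7381255 per library, except for naive replicate 4, the shallowest, with 1503880. Markers of capsule and synovial fibroblasts were present, with sums over 8 sublining genes of 4458 to 8757 in naive and 3491 to 10704 in cast libraries. Col1a1 had the highest mean of the 8, at 4068 in naive and 4154 in cast libraries. Dpp4 fell, from a mean of 45.9 to 13.8 (limma adjusted p = 0.00111), and the other 7 did not pass. Col1a1 and Dpp4 were named after their values were seen. Sums over 10 muscle genes ran from 1569 to 2783 in naive replicates 1 to 3, reached 112 in naive replicate 4 and lay between 14.8 and 388 after casting. All 9 erythroid genes rose, and their sums were 1727 to 2986 in naive and 6054 to 29733 in cast libraries, higher in every cast library. Hbb-bt and Hbb-b2 held the same value in each library, so the count and the sums include it under both symbols. The log2 values of naive replicate 4 correlated at 0.903 to 0.915 with the other naive libraries, which correlated at 0.983 to 0.985 with each other. The part of muscle, blood and this library in the results was not tested, beyond the values given without it. Between bulk samples, more cells of a type and more RNA per cell cannot be told apart.

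Casting was followed by higher transcript levels of 7 of the 10 genes: Mmp13, Mmp8, Mmp3, Mmp9, Mmp11, Mmp10 and Mmp12. None of the 10 fell, and Mmp14, Mmp2 and Mmp19 did not pass the test. Genes were called at an adjusted p of at most 0.05, from limma with the Benjamini-Hochberg method over 15120 genes. Of all genes tested, 12.0% were called, 6.51% as higher in cast capsules and 5.46% as lower. In 8 of the 10 genes all cast libraries lay above all naive ones, a pattern seen in 11.1% of the genes tested, and 20.5% of genes had groups that did not overlap in either direction. The median log2 fold change of the 10 was 2.11, or 2.63 with Mmp10 at its lower bound, beside 0.07 over all genes. The 10 were chosen with earlier results of these data known, which limits this comparison. Among the 8 other Mmp genes listed, 1 rose and 1 fell, with a median of -0.10. Mmp10 and Mmp12 passed the filter on low values only through the cast group, and of the other 8 members 5 rose. Mmp13, Mmp8, Mmp3 and Mmp9 were called in each of the 19 alternatives to this test. The calls of Mmp10, Mmp11 and Mmp12 were lost in some, as given with each gene and in the closing section. With the filter at a mean of 2.5, Mmp10 and Mmp12 were not tested and 5 members were called. A log2 fold change is the cast mean less the naive mean of log2 (value + 1), given with its standard error (SE), and it understates the change of genes with low values.

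**Figure D1:**
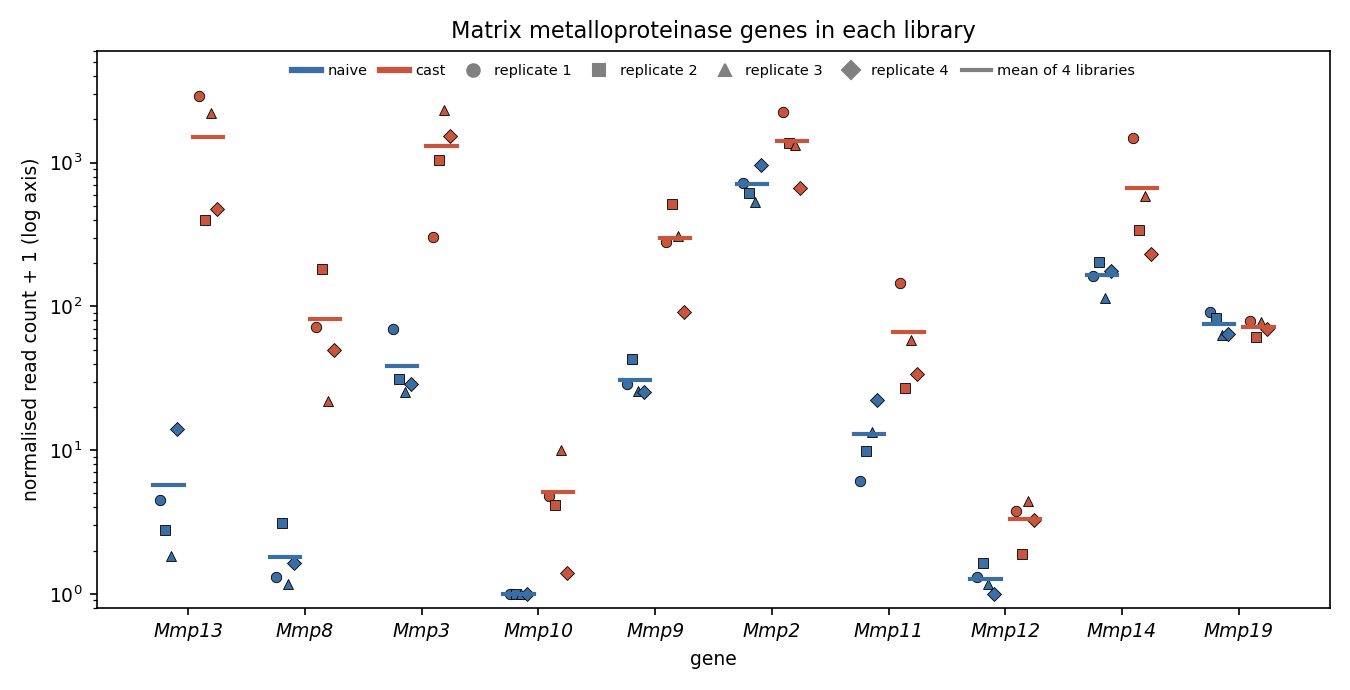
Normalised read count plus 1 (log axis) of the 10 genes, with 1 point per library, blue for naive and red for cast, marker shape for replicate number and a bar at the mean of 4 libraries. Cast points lie above all naive points in 8 genes and overlap them in Mmp2 and Mmp19.

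The collagenase Mmp13 had the largest fold change of the 10. Its naive values were 3.47, 1.77, 0.827 and 12.9 in replicates 1 to 4, and its cast values were 2922, 398, 2229 and 478. The groups were far apart, and cast replicates 1 and 3 were several times higher than cast replicates 2 and 4. Its log2 fold change was 7.97 (SE 0.78, 95% interval 6.23 to 9.71, limma adjusted p = 0.000422). The gene lies on chromosome 9, from 7272514 to 7283331 on the plus strand of build GRCm38, and its longest coding transcript has 10 exons.

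Mmp13 is known as a gene of hypertrophic chondrocytes and osteoblasts as well as of activated fibroblasts. Of 9 osteoblast and hypertrophic cartilage markers, Ibsp and Runx2 rose, Bglap and Bglap2 fell and 5 did not pass. The summed level of these 9 was 32.3 to 175 in naive and 124 to 242 in cast libraries. Col10a1, a defining gene of hypertrophic cartilage, averaged 10.2 in naive capsules against 11.3 after casting, without passing (limma adjusted p = 0.726). These markers were named after their values were seen, and their part in the rise of Mmp13 was not tested.

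Mmp8, the collagenase stored in neutrophil granules, was nearly undetected in naive capsules. It had 0.301, 2.10, 0.165 and 0.647 in naive replicates 1 to 4, which is 17 reads in all, and 70.4, 180, 20.997 and 48.4 in cast replicates 1 to 4. The lowest cast library was still above the highest naive one, and cast replicate 2 stood highest. This gave a log2 fold change of 5.20 (SE 0.58, 95% interval 3.90 to 6.50, limma adjusted p = 0.000889). By pooled reads the cast to naive ratio was 93.6 (95% counting interval 58.3 to 161, counting error only).

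Neutrophil markers moved with Mmp8. Of 10 markers 9 were listed, and 8 of these rose. Their summed level was 23.0 to 66.3 in naive libraries and, in cast replicates 1 to 4, 1660, 6049, 680 and 920, with the second of these again highest. None of the listed markers was at 0 throughout naive capsules. Sums over 5 markers of marrow precursors were 3.64 to 12.3 in naive libraries and 97.9, 262, 8.18 and 12.5 in cast replicates 1 to 4, so only cast replicates 1 and 2 stood above the naive range by a wide margin. Of these 5, Prtn3, named after its value was seen, rose. Without cast replicates 1 and 2 the log2 fold change of Mmp8 was 4.31 (limma adjusted p = 0.00807). The part of neutrophils and their precursors in the rise of Mmp8 was not tested.

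Among the stromelysins, Mmp3 rose from a clear baseline and Mmp10 from no detected reads. Mmp3, which cuts proteoglycans and activates procollagenases, was 68.1, 30.2, 24.5 and 27.8 in naive replicates 1 to 4 and 304, 1045, 2333 and 1525 in cast replicates 1 to 4. Every cast library exceeded every naive one, with naive replicate 1 the highest of its group and cast replicate 1 the lowest of its own. The log2 fold change was 4.86 (SE 0.58, 95% interval 3.58 to 6.15, limma adjusted p = 0.00112). Mmp3 is known in synovial lining fibroblasts. The summed level of 6 lining markers was 3461 to 6982 in naive and 1984 to 3858 in cast libraries. Prg4 made up most of it, with means of 4312 and 1914, and did not pass (limma adjusted p = 0.0706). Clic5, Tspan15, Col22a1 and Hbegf fell. Htra4 was 284, 418, 380 and 184 in naive and 209, 528, 559 and 468 in cast replicates 1 to 4 and did not pass (limma adjusted p = 0.479). These 6 were named after their values were seen, and their part in the rise of Mmp3 was not tested. Without cast replicate 1 the log2 fold change of Mmp3 was 5.45, and without cast replicates 1 and 2 it was 5.73.

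Mmp10, a close relative of Mmp3, had 0 reads in all 4 naive libraries. Its cast values were 3.79, 3.15, 8.999 and 0.400, from 23, 21, 66 and 3 reads in replicates 1 to 4. The level was low everywhere, and cast replicate 4 was near the limit of detection. By pooled reads it was at least 27.9-fold higher in cast capsules, taking 3 reads as the limit for all naive libraries together. Limma gave an adjusted p of 0.0281, and the call was lost without any of naive replicates 1, 2 and 3 (adjusted p = 0.0580, 0.0698 and 0.0673) or cast replicates 1, 2 and 3 (adjusted p = 0.0683, 0.0692 and 0.0601). It was also lost with a pseudocount of 5 in place of 1 (log2 fold change 0.78, adjusted p = 0.0553).

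Mmp11, which furin activates inside the cell, was 5.12, 8.87, 12.4 and 21.3 in naive and 145, 26.1, 57.1 and 33.1 in cast replicates 1 to 4. The groups did not overlap, although cast replicate 2 was close to naive replicate 4. On the log2 scale the fold change was 2.19 (SE 0.54, limma adjusted p = 0.0302). The call was lost without naive replicate 1, 2 or 3 (adjusted p = 0.0692, 0.0803 and 0.0638) or cast replicate 3 (adjusted p = 0.0846). Mmp11 (chromosome 10, 75923222 to 75936496, minus strand) overlaps Chchd10 on the other strand over 3367 bases, and reads of the pair are uncertain because no source used here gives the strand setting of the counting. Chchd10 was 12.9 to 28.2 in naive and 22.2 to 65.9 in cast libraries and did not pass (limma adjusted p = 0.0580).

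The gelatinases differed in level and in call. Mmp9, gelatinase B of neutrophils, osteoclasts and other cells, was 27.7, 41.8, 24.8 and 24.6 in naive and 279, 514, 310 and 90.2 in cast replicates 1 to 4. All cast libraries were above all naive libraries, cast replicate 2 being highest and cast replicate 4 lowest. Its log2 fold change was 3.07 (SE 0.46, 95% interval 2.05 to 4.10, limma adjusted p = 0.00338). Leaving out cast replicates 1 and 2 together gave 2.49 (adjusted p = 0.0377). Besides the neutrophil markers above, 9 osteoclast markers were listed, of which Car2 alone, named after its value was seen, rose among the 8 tested. Their summed level was 341 to 483 in naive and 352 to 722 in cast libraries, and Calcr was at 0 in all naive libraries. Acp5 and Ctsk, named after their values were seen, made up most of this sum. The median log2 fold change of the 8 tested markers was 1.02, beside 0.07 over all genes. The part of these markers in the rise of Mmp9 was not tested.

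Mmp2, gelatinase A, is made by most fibroblasts and was abundant in every library. It was 717, 615, 534 and 955 in naive and 2257, 1369, 1327 and 664 in cast replicates 1 to 4. Cast replicate 4 lay inside the naive range, and the other 3 cast libraries lay above it. This gave a log2 fold change of 0.90 (SE 0.36, 95% interval 0.09 to 1.71), which did not pass (limma adjusted p = 0.147, unadjusted p = 0.0328). Without cast replicate 4 it passed (log2 fold change 1.22, adjusted p = 0.0366), and it passed with DESeq2 (log2 fold change 0.99, adjusted p = 0.0393).

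Mmp14, the membrane enzyme that activates pro-Mmp2 and cuts collagen at the cell surface, was 161, 202, 113 and 176 in naive and 1487, 339, 588 and 231 in cast replicates 1 to 4. The groups did not overlap, but cast replicate 4 was only slightly above naive replicate 2. The log2 fold change was 1.68 (SE 0.50, 95% interval 0.56 to 2.79) and just missed the threshold (limma adjusted p = 0.0580). It passed without cast replicate 4 (log2 fold change 2.06, adjusted p = 0.0278), with edgeR on whole reads recovered from the values (adjusted p = 0.0278) and with DESeq2 (adjusted p = 0.000974). Across all genes, edgeR called 7.29% and DESeq2 9.69% as higher in cast capsules.

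Mmp12, the macrophage elastase, stayed near the detection limit. It was 0.301, 0.645, 0.165 and 0 in naive and 2.80, 0.899, 3.41 and 2.27 in cast replicates 1 to 4. The groups were separate by a narrow margin between naive replicate 2 and cast replicate 2. On the log2 scale the fold change was 1.35 (SE 0.30, limma adjusted p = 0.0202), and by pooled reads, with 7 in naive and 65 in cast libraries, cast was 6.88 times naive (95% counting interval 3.16 to 17.8). Leaving out naive replicate 3 ended the call (adjusted p = 0.0576), as did leaving out cast replicate 1 (0.0516) or cast replicate 3 (0.0662). Mmp12 overlaps Mmp1b on the other strand over 1261 bases. Of 10 macrophage markers 0 were called by limma, and their summed level was 2730 to 5653 in naive and 4436 to 5968 in cast libraries.

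Mmp19, expressed in many resting tissues, was the steadiest of the 10. It was 90.4, 82.0, 62.0 and 62.7 in naive and 77.6, 60.7, 76.6 and 68.7 in cast replicates 1 to 4, so the groups overlapped throughout. Its log2 fold change was -0.05 (SE 0.18, 95% interval -0.46 to 0.35, limma adjusted p = 0.879). Its gene overlaps Tmem198b on the other strand over 789 bases and the antisense gene Gm47093 over 9915 bases.

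Within each subfamily the log2 ratio of a pair of members asked whether they moved by different amounts. The ratio of Mmp9 to Mmp2 was -4.64, -3.85, -4.37 and -5.22 in naive and -3.01, -1.41, -2.09 and -2.87 in cast replicates 1 to 4. It was higher in every cast library, by 2.18 on average, with a two-sided exact permutation p of 0.0286, the smallest these groups allow, and 0.0857 adjusted over the 3 ratios. For Mmp13 over Mmp8 the ratio was higher by 2.77 in cast capsules, but it ranged from 1.14 to 6.66 there and from -0.16 to 3.08 in naive ones (exact permutation p = 0.114, adjusted p = 0.114). For Mmp3 over Mmp10 the difference was 2.83 (exact permutation p = 0.0571, adjusted p = 0.0857), a value that rests on Mmp10 at 0 in naive capsules and on the pseudocount. None of the 3 differences passed after adjustment. A ratio at the smallest p could pass only if another ratio reached it too, so this outcome does not show that the pairs moved alike.

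Per kilobase of the longest coding transcript, Mmp2 was highest in all 4 naive libraries, Mmp13 in cast replicate 1 and Mmp3 in cast replicates 2 to 4. Mmp2 was second in cast replicates 1, 2 and 4. In naive capsules the level per kb was 229 ± 59.4 for Mmp2, 50.3 ± 11.5 for Mmp14, 21.8 ± 4.17 for Mmp19 and 20.9 ± 11.4 for Mmp3 (mean ± SD, n = 4). Mmp9 followed at 9.36 ± 2.57, Mmp11 at 5.22 ± 3.03 and Mmp13 at 1.78 ± 2.08, with Mmp8 at 0.331, Mmp12 at 0.0771 and Mmp10 at 0. Mmp2 was above Mmp14, Mmp14 above Mmp19, and Mmp3 above Mmp9 in every naive library set against every other, and the remaining neighbours in this order overlapped.

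By group mean, the order in cast capsules was Mmp3 at 723 ± 473 per kb, Mmp13 at 564 ± 474, Mmp2 at 456 ± 212, Mmp14 at 204 ± 176, Mmp9 at 94.0 ± 54.7 and Mmp8 at 33.0 ± 28.8. Mmp11 at 28.6 ± 23.9 and Mmp19 at 20.8 ± 2.32 came next, ahead of Mmp10 at 2.37 ± 2.09 and Mmp12 at 0.650 ± 0.297 (n = 4 each). Neighbours in this order overlapped, except that Mmp19 was above Mmp10 throughout. Of the summed level per kb, Mmp2 made up 62.1 to 73.8% in naive and 14.9 to 28.8% in cast libraries. Mmp13 made up 0.122 to 1.15% in naive libraries and 41.1, 9.62, 28.7 and 12.8% in cast replicates 1 to 4. Mmp3 made up 3.67 to 10.5% in naive libraries and 6.35, 37.5, 44.6 and 60.6% in cast replicates 1 to 4. The share of all normalised reads that fell on the 10 genes was 0.0773 to 0.132% in naive and 0.319 to 0.769% in cast libraries.

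**Figure D2:**
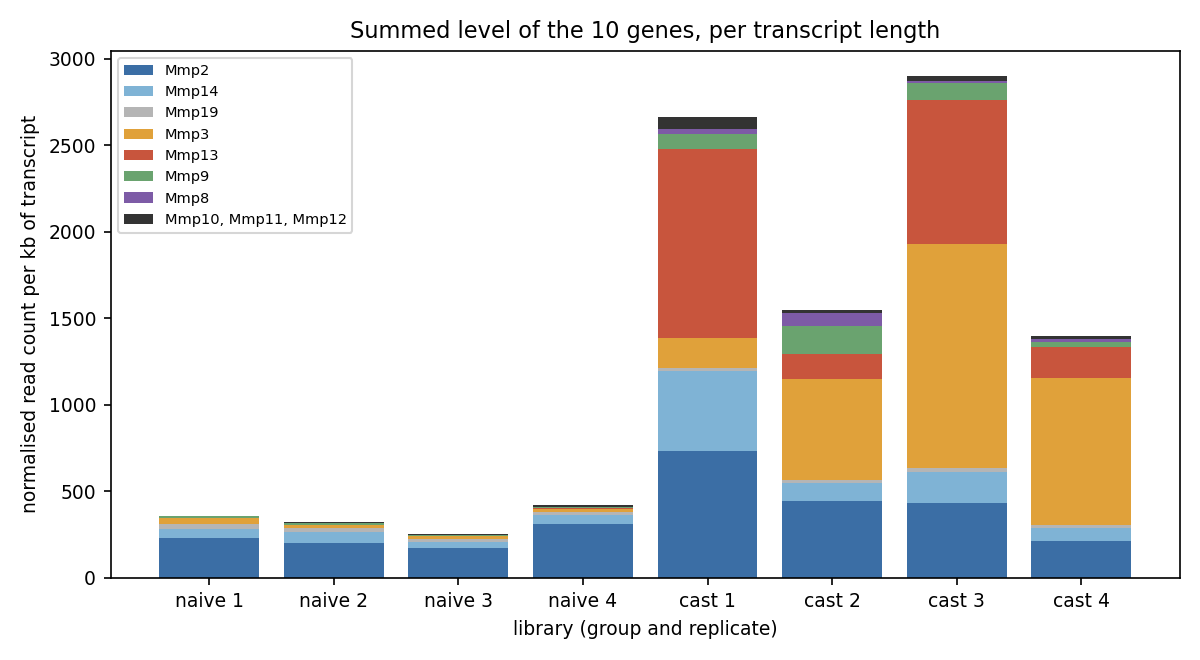
Normalised read count per kb of transcript, summed over the 10 genes in each of 4 naive and 4 cast libraries, with colours for the genes. Mmp2 fills most of each naive bar, and Mmp13 and Mmp3 (red and orange) fill different shares of the 4 cast bars.

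The cast libraries did not differ from each other in the same way for every gene. Mmp13 was highest in cast replicate 1 and lowest in cast replicate 2. Mmp14, Mmp11, Mmp2 and, by a narrow margin, Mmp19 were also highest in cast replicate 1. Mmp3 was the reverse in cast replicate 1, where it was lowest, and it was highest in cast replicate 3. The ratio of Mmp13 to Mmp3 reads was 9.60 in cast replicate 1 and 0.380, 0.955 and 0.314 in cast replicates 2 to 4. In naive replicates 1 to 4 it was 0.0509, 0.0588, 0.0338 and 0.465. Mmp8, Mmp9 and Mmp25 were highest in cast replicate 2, as was the neutrophil list. Relations among these patterns were not tested.

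**Figure D3:**
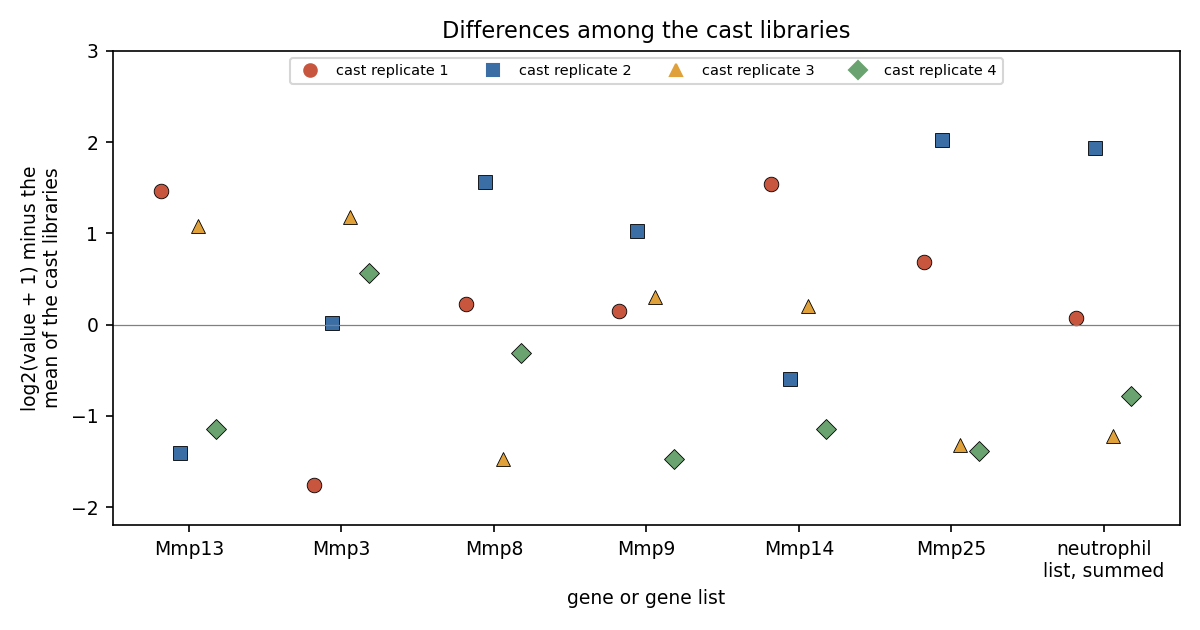
Log2 of the value plus 1 in each cast library minus the mean of the 4 cast libraries, for 6 genes and for the summed neutrophil list, with 1 marker per cast replicate. Mmp8, Mmp9, Mmp25 and the neutrophil list are highest in replicate 2, Mmp13 and Mmp14 in replicate 1, and Mmp3 in replicate 3.

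The members on chromosome 9 all rose, and they sit in a run of related genes. GENCODE M21 places 10 Mmp genes between 7272514 and 7699585 on this chromosome (build GRCm38, 427.1 kb), and the table lists 6 of them. Mmp13, Mmp12, Mmp3, Mmp10 and Mmp8 rose, and the median of their log2 fold changes was 4.86, also with Mmp10 at its bound. Of these, Mmp10 and Mmp12 passed the filter only through the cast group, and the calls of both were lost without single libraries. The other 3, Mmp13, Mmp3 and Mmp8, were called in every alternative run. Mmp27, which lies between Mmp8 and Mmp20, had 1.36 ± 0.976 in naive libraries (n = 4) against 3.11 ± 0.808 in cast ones (n = 4), which missed the threshold (log2 fold change 0.91, limma adjusted p = 0.149). The 5 members on other chromosomes, Mmp2 on 8, Mmp9 on 2, Mmp11 and Mmp19 on 10 and Mmp14 on 14, had 2 calls and a median of 1.68.

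The nearest tested genes outside this run had log2 fold changes of 0.34 to 0.94. On the side of Mmp13, Dcun1d5, Dync2h1 and Ddi1 had log2 fold changes of 0.74, 0.53 and 0.34 and did not pass (limma adjusted p = 0.363, 0.440 and 0.654). On the far side, Tmem123 and Birc2 had 0.51 and 0.58 without passing (adjusted p = 0.209 and 0.325). Birc3, an inhibitor of apoptosis in the NF-kB pathway, rose by 0.94 (limma adjusted p = 0.0167), a call that ended when naive replicate 2 was left out (adjusted p = 0.0517) and when cast replicate 3 was (0.0593). Each of these flanking genes had its lowest naive value in naive replicate 4, the shallowest library. Dcun1d5 was 32.1, 28.4, 26.8 and 5.17 in naive and 32.8, 29.7, 36.3 and 32.9 in cast replicates 1 to 4. Dync2h1 was 87.5, 75.2, 84.0 and 22.0 in naive and 95.3, 80.6, 86.9 and 81.0 in cast replicates 1 to 4. In naive replicates 1 to 4, Birc2 was 45.2, 36.8, 45.6 and 14.2, and Tmem123 was 135, 117, 116 and 62.7. The fold changes of Dcun1d5, Dync2h1, Birc2 and Tmem123 thus rest in part on naive replicate 4. No test compared the run with its flanks.

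**Figure D4:**
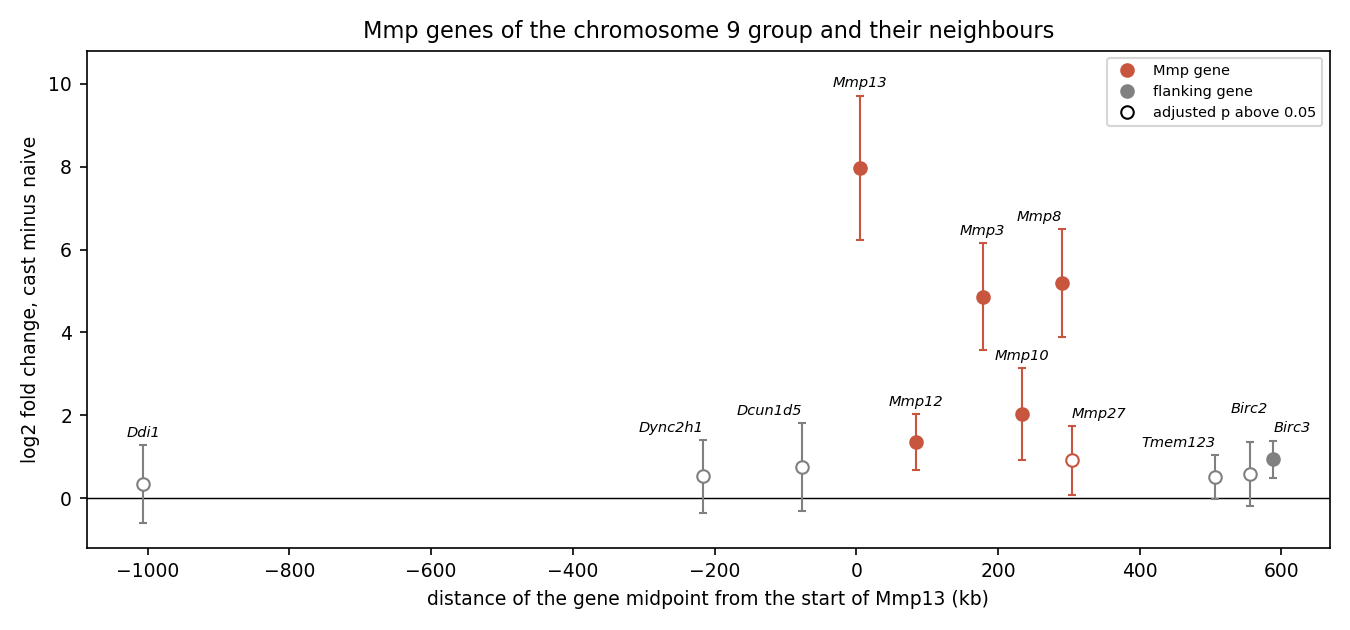
Log2 fold change (cast minus naive) with its unadjusted 95% interval against the distance of each gene's midpoint from the start of Mmp13 in kb, red for Mmp genes and grey for the flanking genes, open where the adjusted p is above 0.05. The 5 filled red points are at 1.35 to 7.97, and the flanking genes are at 0.34 to 0.94. Every flanking gene had its lowest naive value in naive replicate 4.

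Promoter sequences of the members on chromosome 9 are shown with the matches to 3 motifs. Cytokine pathways that induce collagenases and stromelysins are known to act in part through AP-1 sites. The part of such sites in the rise of these genes was not tested. Each line gives the 120 bases before the RefSeq start (GRCm38.p6, plus strand), in lower case with motif matches in capitals. The AP-1 motif was searched as TGANTCA on both strands. For the TATA box the letters were TATAAA, likewise on both strands. The Runx motif was searched in the same way as AACCACA, and no matches overlapped each other in these windows. The windows are chr9:7272394-7272513 for Mmp13, chr9:7445702-7445821 for Mmp3, chr9:7502222-7502341 for Mmp10, chr9:7347254-7347373 for the downstream start of Mmp12 and chr9:7558309-7558428 for Mmp8.
Mmp13: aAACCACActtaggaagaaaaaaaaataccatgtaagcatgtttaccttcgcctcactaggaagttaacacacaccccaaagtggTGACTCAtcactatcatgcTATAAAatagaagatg
Mmp3: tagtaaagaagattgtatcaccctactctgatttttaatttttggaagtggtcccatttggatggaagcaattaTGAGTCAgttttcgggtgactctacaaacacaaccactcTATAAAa
Mmp10: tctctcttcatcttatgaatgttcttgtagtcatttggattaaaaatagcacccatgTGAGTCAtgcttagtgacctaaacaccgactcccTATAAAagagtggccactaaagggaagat
Mmp12: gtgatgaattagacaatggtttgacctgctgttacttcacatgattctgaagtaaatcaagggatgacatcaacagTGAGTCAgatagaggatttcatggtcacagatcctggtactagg
Mmp8: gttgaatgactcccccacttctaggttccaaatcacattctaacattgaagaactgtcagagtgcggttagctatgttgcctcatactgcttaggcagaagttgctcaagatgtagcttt
An AP-1 match began 35 bases before the start in Mmp13, 46 in Mmp3, 63 in Mmp10 and 44 at the downstream start of Mmp12. Across 32851 RefSeq windows of the same length, 3.41% held the AP-1 motif, 6.34% the TATA motif and 2.11% the Runx motif. The TATA motif was in Mmp13, Mmp3 and Mmp10, starting 16, 7 and 29 bases before their starts. The Runx motif was in Mmp13 alone among these members, 119 bases before its start. Mmp8, the upstream start of Mmp12, Mmp11 and Mmp14 held none of the 3 motifs in this window, and Mmp2, Mmp9 and Mmp19 had no entry. A match describes letters and shows no binding.

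Of 13 other Mmp genes 8 were listed, and only Mmp25 rose and only Mmp28 fell by limma. Mmp25, a membrane-anchored enzyme of neutrophils, was 0.484 to 1.94 in naive libraries and 19.0, 49.5, 3.95 and 3.73 in cast replicates 1 to 4. The groups were separate, and cast replicates 1 and 2 stood highest (log2 fold change 2.62, SE 0.70, limma adjusted p = 0.0382). Its call was lost without naive replicate 1, 2 or 3 (adjusted p = 0.0732, 0.0999 and 0.0891) or cast replicate 1 or 2 (adjusted p = 0.0960 and 0.0583), and with a pseudocount of 5 (0.0754). Without cast replicate 2 its log2 fold change was 1.95. Mmp28, or epilysin, was 14.3, 18.1, 14.2 and 21.3 in naive and 7.91, 6.44, 6.54 and 6.27 in cast replicates 1 to 4. Every cast library was below every naive one (log2 fold change -1.19, SE 0.20, limma adjusted p = 0.00595). Mmp15, Mmp16, Mmp17, Mmp23, Mmp24 and Mmp27 did not pass, with log2 fold changes from -0.72 to 0.91.

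**Figure D5:**
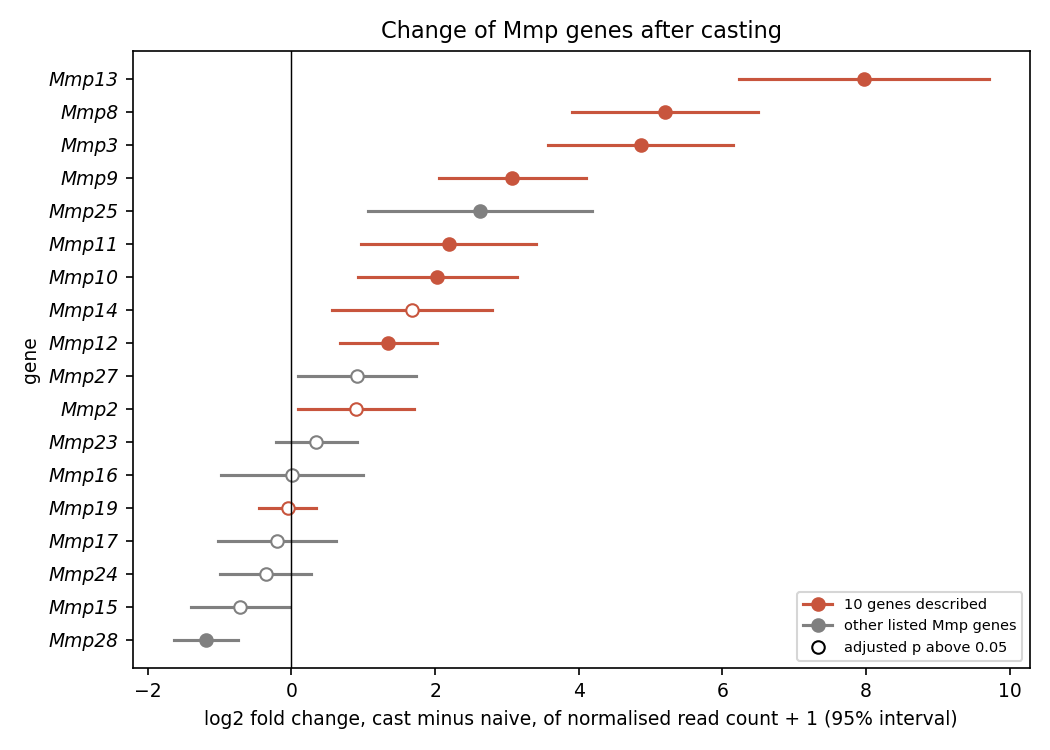
Log2 fold change (cast minus naive) of the normalised read count plus 1 for 18 listed Mmp genes, with the unadjusted 95% interval, red for the 10 genes described, grey for the other 8 and open where the adjusted p is above 0.05. The red points run from -0.05 for Mmp19 to 7.97 for Mmp13.

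Of 6 genes for inhibitors of the family, A2m, a trap for proteases in general, rose and 5 did not pass. A2m was 0.199 ± 0.306 in naive and 1.49 ± 0.470 in cast capsules (n = 4 each; log2 fold change 1.07, limma adjusted p = 0.0241). That low level lost its call without naive replicate 1 or 3 (adjusted p = 0.0551 and 0.0720) or cast replicate 1, 2 or 3 (adjusted p = 0.0570, 0.0591 and 0.0809). The inhibitors summed to 2111 to 2472 in naive and 1437 to 2242 in cast libraries. Timp2, which binds Mmp14 and pro-Mmp2, averaged 1596 ± 152 in naive and 1139 ± 389 in cast libraries (n = 4 each), and Timp3 was 571 ± 152 and 349 ± 82.4, neither passing (limma adjusted p = 0.221 and 0.0963). Timp1, an inducible inhibitor of most secreted members, was 40.7, 19.0, 14.4 and 44.6 in naive and 42.4, 87.2, 168 and 75.8 in cast replicates 1 to 4. Its groups overlapped in cast replicate 1 (log2 fold change 1.60, limma adjusted p = 0.0516). These 3 Timp genes were named after their values were seen.

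Of 14 listed genes of proenzyme activation, 11 did not pass. Pcsk5, a proprotein convertase of the furin family, rose from 27.8 ± 2.63 to 132 ± 48.4 (log2 fold change 2.13, limma adjusted p = 0.00112). Its relative Pcsk6 fell from 670 ± 46.5 to 119 ± 44.9 (log2 fold change -2.57, limma adjusted p = 0.000599).

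Of 23 tested genes of the signals and transcription factors that induce the family, 5 rose, 2 fell and 16 did not pass. Il1r1, the interleukin 1 receptor, was 187, 123, 90.8 and 62.7 in naive and 223, 374, 482 and 453 in cast replicates 1 to 4 (log2 fold change 1.77, limma adjusted p = 0.0125). Osmr, an oncostatin M receptor chain, rose from 128 ± 44.3 to 354 ± 63.0 (log2 fold change 1.52, limma adjusted p = 0.00888). Both receptors, like Mmp3, were lowest in cast replicate 1 among the cast libraries. The AP-1 subunit Fosb was 130, 27.9, 469 and 195 in naive and 1.81, 4.95, 6.41 and 1.47 in cast replicates 1 to 4 (log2 fold change -5.03, limma adjusted p = 0.00337). Jund, a further AP-1 subunit, fell from 196 ± 46.7 to 83.1 ± 14.05 (log2 fold change -1.21, limma adjusted p = 0.00912). Without naive replicate 2 or 3 the log2 fold change of Fosb was -5.78 or -4.44. Junb (136 in naive, 145 in cast capsules on average) and Fosl2 (180 and 226), further subunits named after their values were seen, did not pass (limma adjusted p = 0.855 and 0.390). Fos averaged 338 in naive and 53.4 in cast capsules, and Jun 148 and 84.2. These subunits, also named after their values were seen, did not pass (log2 fold changes -2.29 and -0.79, limma adjusted p = 0.124 and 0.104). Il1b, the cytokine interleukin 1 beta, rose from 1.45 ± 0.864 to 31.5 ± 21.5 (log2 fold change 3.59, limma adjusted p = 0.000972). Runx2, a regulator of bone and hypertrophic cartilage, rose from 5.22 ± 1.80 to 30.6 ± 15.4 (log2 fold change 2.25, limma adjusted p = 0.00595), and Osm, the oncostatin M ligand named after its value was seen, rose too.

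Of 16 matrix substrates, 1 rose, 2 fell and 13 did not pass. Lum, a collagen-binding proteoglycan, was 440, 241, 294 and 31.7 in naive replicates 1 to 4 and averaged 1678 ± 228 in cast libraries (log2 fold change 3.22, limma adjusted p = 0.0157). Naive replicate 4 was far below the other naive libraries, and without it the log2 fold change of Lum was 2.40 (adjusted p = 0.000330). Without cast replicate 3 it was 3.14 and did not pass (adjusted p = 0.0516). Col2a1, cartilage collagen, was 4.52 to 13.7 in naive and 0.273 to 2.14 in cast libraries (log2 fold change -2.22, limma adjusted p = 0.00573). Fn1, fibronectin, had -1.81 (limma adjusted p = 0.0390), a call lost without any of naive replicates 1, 2 and 3 or cast replicates 3 and 4 (adjusted p = 0.0922, 0.0980, 0.0722, 0.118 and 0.0814) and with no filter on low values (0.0763). Of 7 genes of collagen uptake and lysosomal breakdown, Lgmn and Ctsl rose (log2 fold changes 1.17 and 1.03, limma adjusted p = 0.0107 and 0.0174) and 5 did not pass. Ctsl lost its call without naive replicate 2 (adjusted p = 0.0589) or without cast replicate 3 (0.0602).

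Genes with the most similar profiles over the 8 libraries were found by the root mean square (RMS) difference of log2 values, each gene centred on its own mean, and the common difference between groups enters this measure. For Mmp3 they were Cxcl14, Chl1 and Ptx3, with RMS differences of 0.42, 0.45 and 0.47. Cxcl14, a stromal chemokine, was 56.2, 27.9, 17.7 and 16.8 in naive and 234, 878, 1016 and 613 in cast replicates 1 to 4. Like Mmp3 it was highest in replicate 1 of the naive libraries and lowest in replicate 1 of the cast libraries, a likeness that its choice by profile favours. For Mmp8 they were Cd177, Retnlg and Asprv1 (0.48, 0.52 and 0.56), of which Cd177 and Retnlg belong to the neutrophil list. For Mmp9 they were Trem1, F5 and Ipcef1 (0.40, 0.44 and 0.44). For Mmp13 the closest gene, Chil3, was at 1.33, followed by Hbb-bs and S100a9 at 1.80 and 1.84. The search left out predicted and clone names. No gene searched came as near to Mmp13 as the genes named for the other 3. Gaps in fold change enter the measure, and Chil3, Hbb-bs and S100a9 had log2 fold changes of 6.76, 5.18 and 6.12, beside 7.97 for Mmp13.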

How the data were processed

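Per the labels' protocols, ribosomal RNA was depleted from 200 ng of RNA and the directional libraries were read from both ends over 150 bases. The protocol text names Trimmomatic 0.38 and the human build hg38, whereas the mouse build mm10, RSEM, Bowtie2, edgeR and Trimmomatic 0.36 are listed per the submitters' processing notes. The symbols are those of mouse. No source used here gives the annotation, the strand setting or the other versions.

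The table that the authors deposited holds a signal, the normalised read count. Dividing by what 1 read is worth in each library gave whole numbers to within 0.01 for 100% of values, and these recovered reads totalled 20826744 in naive and 27307862 in cast libraries. Coordinates and transcript lengths came from GENCODE M21, and promoter windows from RefSeq.

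Values were taken as log2 after adding 1, a mean over the libraries of 0.5 or more was required, and limma-trend compared the 15120 genes that passed. The members and lists were chosen with earlier results of these data known. Named genes were the 10 members, other Mmp genes, called genes of 5 related lists (up to 4 per direction), 3 flanking genes on each side of the chromosome 9 run, and the 3 nearest profiles of 4 members. A result among the genes of proenzyme activation is not reported here. Ratios of members were compared by exact permutation over 70 assignments. Alternatives were other pseudocounts (0.5 and 5), filters (none and 2.5), scalings, limma without a trend, replicate number as a block, edgeR (2039 genes called) and DESeq2 on recovered reads, and libraries left out. Scripts were tested on simulated data. Fits used limma 3.58.1, edgeR 4.0.16 and DESeq2 1.42.0 under R 4.3.3, and tables and plots used numpy 2.4.6, pandas 2.3.3 and matplotlib 3.10.9 under Python 3.11.15.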

Additional observations from a re-analysis of the deposited data

Results flagged for a closer look

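Mmp3 in naive replicate 1 was 68.1, apart from the other naive libraries, of which the nearest was 30.2. The gap was 0.869 of the range of the group, above the 95% critical value of Dixon's test for 4 samples. The 10 genes gave 19 groups with any spread, and chance marks about 1 in 20.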

How the results depend on the processing

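Mmp13, Mmp8, Mmp3 and Mmp9 were called higher in all 19 alternatives. The number of members called was 5 with the replicate block, 8 by edgeR and 9 by DESeq2, and 4 to 9 with 1 library left out (4 without naive replicate 3 or cast replicate 3, 9 without cast replicate 4). Genes called in all numbered 1810, and 2754 by DESeq2, 717 without cast replicates 1 and 2, and 916 to 2665 with 1 library left out. With 1 library left out the ratio differences were 1.92 to 3.76 for Mmp13 over Mmp8, 2.13 to 3.50 for Mmp3 over Mmp10 and 1.86 to 2.40 for Mmp9 over Mmp2. With a pseudocount of 5 the differences for Mmp3 over Mmp10 (3.93) and Mmp9 over Mmp2 (2.02) passed (exact permutation, adjusted p = 0.0429 each), as they did without cast replicate 1. The cause of these shifts was not tested. Leaving out cast replicates 1 and 2 together also ended the calls of Mmp10, Mmp11, Mmp25, Birc3, A2m, Runx2, Lum and Lgmn (adjusted p = 0.180, 0.0872, 0.0868, 0.0643, 0.146, 0.0583, 0.106 and 0.0569). Uncalled genes changed sign around 0. Mmp16 was -0.026 at a pseudocount of 5, -0.25 by edgeR, -0.22 by DESeq2, -0.055 and -0.14 without cast replicate 1 or 2, -0.32 without both, and -0.41 (without naive replicate 4) to 0.38 with 1 library left out. With 1 library left out, Mmp19 was -0.13 to 0.046 (0.046 without naive replicate 1, 0.018 without cast replicate 2) and Mmp17 was -0.44 to 0.13 (0.13 without naive replicate 4). Ddi1 was -0.085 without cast replicates 1 and 2. Deviations of libraries with the same replicate number correlated at -0.06 to 0.08, beside -0.23 to 0.23 for other pairs. Such values cannot show whether the numbers pair the libraries, and no label says so. The replicate block called 1371 genes, without Mmp11, Mmp12, Mmp25 and A2m (adjusted p = 0.0738, 0.0583, 0.0675 and 0.0567). It gave the ratio of Mmp9 to Mmp2 an exact sign-flip p of 0.125, the smallest 4 pairs allow. Scaling without muscle and blood genes split the calls into 1076 higher and 730 lower. Depth limits Mmp10, Mmp12 and naive Mmp8 and Mmp13, which rest on few reads.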
